A study of Mus musculus with 24 samples.

Results

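The genes described here are 10 targets and components of the endoplasmic reticulum (ER) unfolded protein response: Hspa5, Hyou1, Dnajb9, Sdf2l1, Pdia4, Creld2, Herpud1, Sel1l, Edem1 and Xbp1. They were chosen by name, and all 10 were among the 46557 genes and unnamed probes measured on a mouse 1-colour Agilent array. The unfolded protein response is started when unfolded proteins build up in the ER and the membrane sensors IRE1, PERK and ATF6 become active. IRE1 splices the Xbp1 transcript, ATF6 is cleaved to a transcription factor, and PERK slows translation and raises ATF4, so that chaperones, disulfide isomerases and the machinery of ER-associated degradation (ERAD, the removal of misfolded proteins from the ER) are made. In macrophages, Toll-like receptor signals are known to activate IRE1 and XBP1.

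Levels were measured in 6 groups of C57BL/6 male mice aged 10 weeks, with 4 arrays in each group. TAM post-sepsis samples were labelled as tumour-associated macrophages. They were taken by density gradient and 1 hour of adhesion from mice whose sepsis had been induced 14 days earlier. TAM naive samples were the same preparation from mice without sepsis. M0 post-sepsis samples were marrow cultures of post-sepsis mice. M1 and M2 samples were marrow cultures of naive mice stimulated at day 3. M1 cultures were given 50 ng/mL of interferon-gamma and 10 ng/mL of lipopolysaccharide, and M2 cultures were labelled as given 20 ng/mL of IL-10. M0 naive samples were the unstimulated cultures of naive mice. All M0, M1 and M2 cultures were grown for 7 days with 10% fetal bovine serum and 20% L929 supernatant. The supernatant is a source of macrophage colony-stimulating factor. The tumour line was not given in the sources used here. TAM naive replicate 2, which the submitters marked as excluded for its RNA, was left out, so that 23 arrays were used. Per the study's design text the samples of each group were the best by absorbance ratio out of several experiments, and the experiment of each sample was not stated. For that reason a p-value here reflects how chosen samples varied, which may be technical in part.

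Promoter sequence is shown for the 3 genes whose promoter held an ER stress response element (ERSE), the site through which ATF6 and spliced XBP1 are known to act with NF-Y. RefSeq windows on GRCm38.p6, from 250 bases before to 50 bases after the start of the gene, were given for 9 of the 10 genes, all but Hyou1. For Edem1 the table's start lies 4596 bases inside the gene as the RefSeq gene table gives it, and for the other 8 genes the starts are the same. Capitals mark the element, CCAAT and CCACG with 9 bases of any letter between them for ERSE, or ATTGG and CCACG with 1 base between them for ERSE-II, searched on both strands. In Creld2 the element lies on the opposite strand and its letters are reversed and complemented. The stretches are from chr2:34772005-34772063 (Hspa5), chr15:88819500-88819558 (Creld2) and chr8:94386357-94386407 (Herpud1), all on the plus strand.
Hspa5: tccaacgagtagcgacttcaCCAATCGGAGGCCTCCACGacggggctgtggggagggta
Creld2: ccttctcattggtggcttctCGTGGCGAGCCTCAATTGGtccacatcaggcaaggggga
Herpud1: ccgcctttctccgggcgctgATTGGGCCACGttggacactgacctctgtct

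ERSE was found in 2 of the 9 windows, against 0.137% of 27025 genes with a window of the same length. ERSE-II was found in 1 of the 9 windows, against 0.0444% of genes. The core of the element bound by spliced XBP1, TGACGTGG, was found in 0 of the 9 windows and in 0.714% of genes. The 5-letter CCACG, which is also the end of both ERSE forms, was found in 8 of the 9 windows, against 35.5% of genes. Without Edem1 the counts were 2, 1, 0 and 7 of 8 windows. A match is a description of these letters and not a site of binding. Because the genes were chosen as targets and components of this response, the shares are no test of enrichment.

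All 23 arrays detected between 56.9% and 69.7% of probes well above background, and the left-out TAM naive array detected 42.4%. Every probe used for the 10 genes was well above background on 23 of 23 arrays. Each gene had 1 probe except Dnajb9, which had 2. The arrays lay on 3 slides, and every slide held samples of more than 1 group. Each array's sample was taken from its scanner file. A deposited value table, whose columns had been found to follow the scanner files of other samples, was not used, so that the array labels rest on the scanner files alone. Marker genes separate TAM from culture arrays as labelled, but which M0, M1, M2, naive or post-sepsis label belongs to which array was not settled beyond those files. The TAM arrays went against their label in the markers of the cells. Over 10 macrophage markers the mean log2 level lay between 0.45 and 1.82 on TAM post-sepsis arrays and between 1.31 and 1.86 on TAM naive arrays, against 6.45 to 6.66 on M0 naive arrays, although all 10 markers were above background on every array. Over 6 melanocyte markers it lay between 7.48 and 7.67 in TAM post-sepsis, between 6.94 and 7.62 in TAM naive and between -3.05 and -2.51 in M0 naive. Over 7 fibroblast markers it lay between 3.39 and 5.80 in TAM post-sepsis, between 3.31 and 5.37 in TAM naive and between -4.35 and -3.65 in M0 naive. These are bulk samples, in which fewer cells of a type and less RNA per cell cannot be told apart. The part of these other cells in every TAM value below was not tested.

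**Figure D1:**
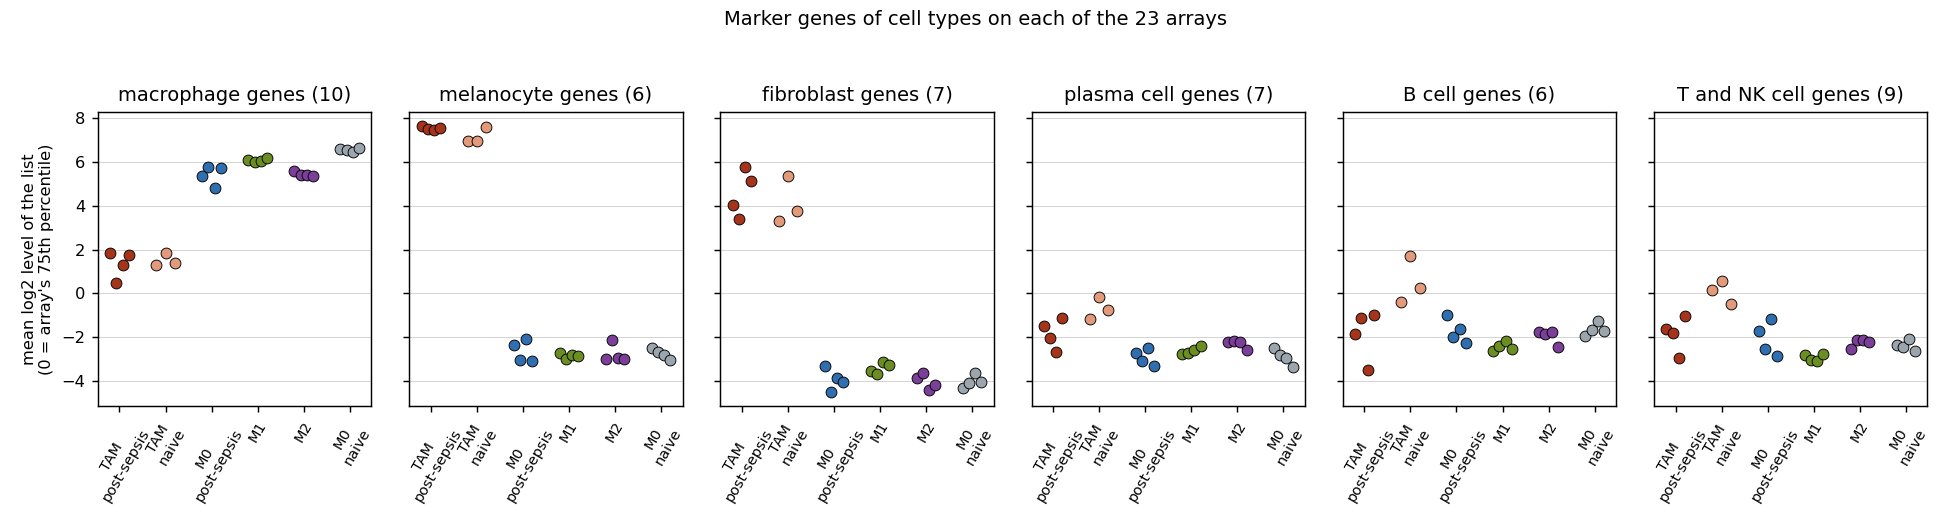
Mean log2 level of each marker list on each array (log2 intensity relative to the array's 75th percentile), by group, for macrophage, melanocyte, fibroblast, plasma cell, B cell, and T and NK cell genes. Melanocyte and fibroblast lists are high on every TAM array and low on every marrow culture, and the macrophage list is the reverse.

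All levels below are log2 processed intensities relative to the 75th percentile of the array, so that 1 unit is a doubling. Levels of different probes cannot be set against each other. The M0 naive arrays are the comparator of the M0 post-sepsis, M1, M2 and TAM naive comparisons, which therefore share their error. A gene was called when its Benjamini-Hochberg adjusted p in limma, over all genes kept, was under 0.05 (two-sided). Every count, share or median over all genes includes unnamed probes, each taken as a gene of its own.

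**Figure D2:**
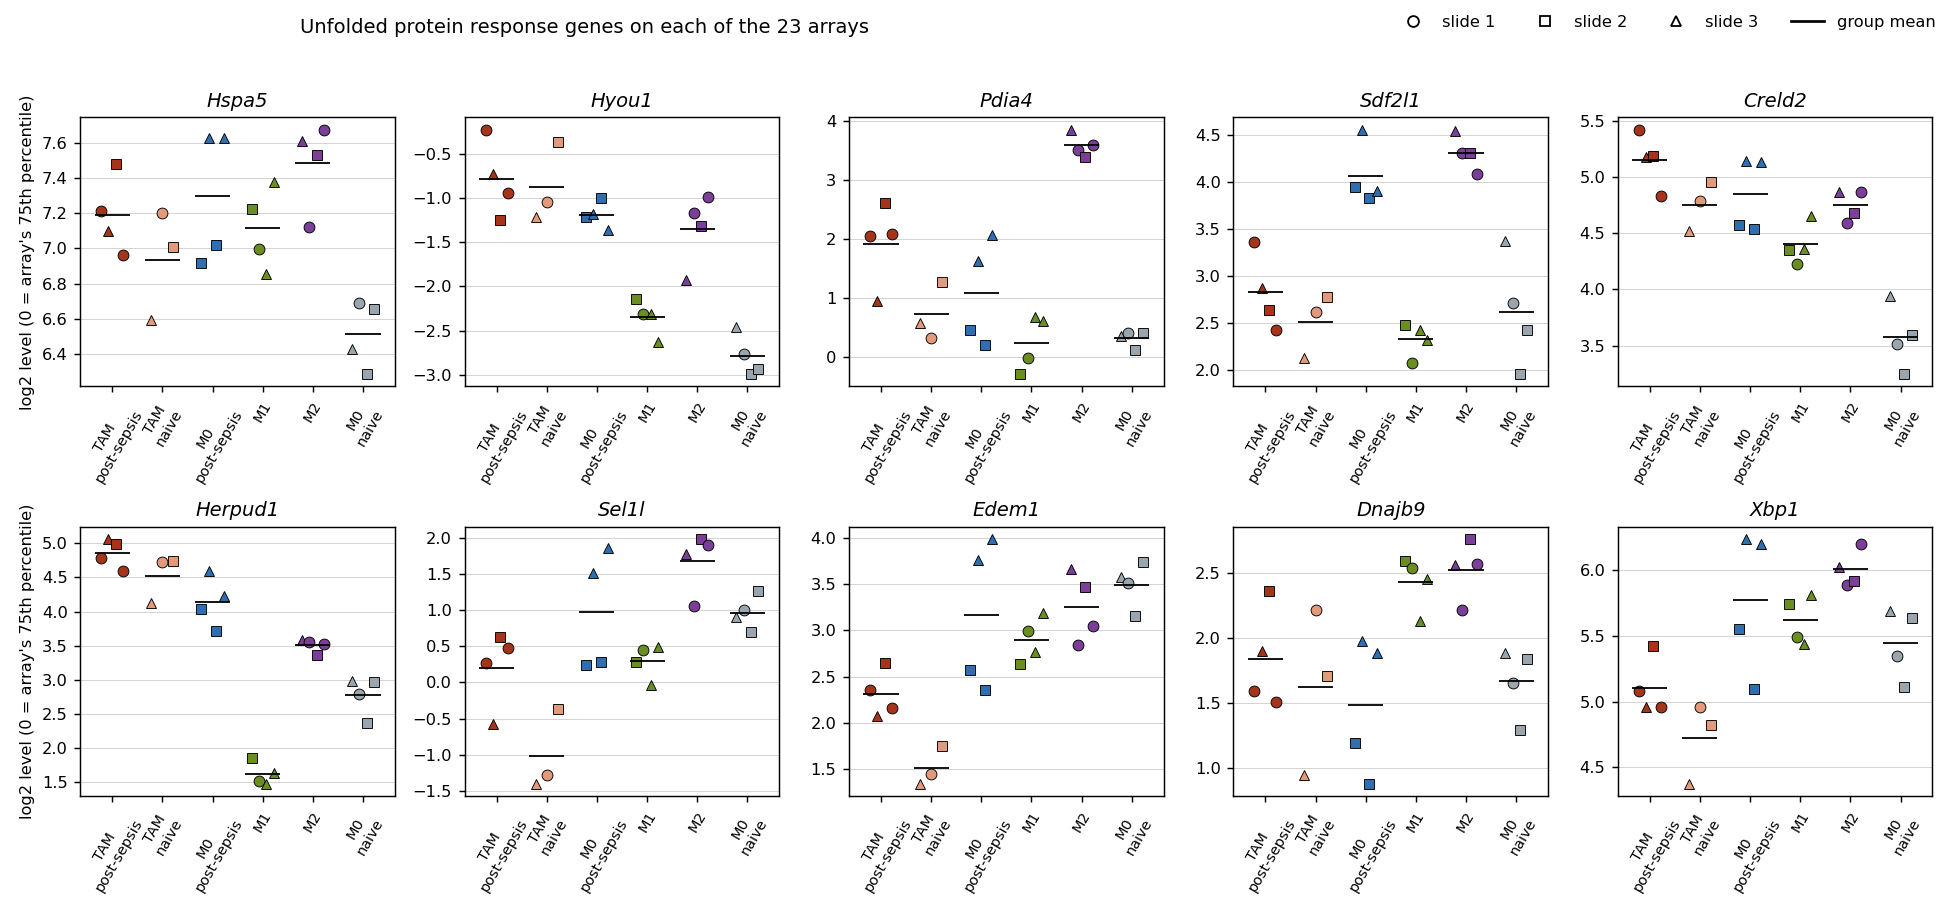
Log2 level of each of the 10 genes on each of the 23 arrays, by group, with the marker shape giving the slide and the line giving the group mean. Pdia4 on the M2 arrays lies above every other array, and Herpud1 is lowest on the M1 arrays.

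In marrow macrophages of post-sepsis mice, 5 of the 10 genes rose and 0 fell against M0 naive cultures. They were Hyou1, Herpud1, Sdf2l1, Creld2 and Hspa5, that is 4 chaperones or folding factors of the ER lumen and 1 ERAD scaffold. Over all 29638 genes tested, 5.41% rose and 5.33% fell. The median change of the 10 genes was 0.77, against 0.04 over all genes tested. The levels of 5 of the 10 genes, the same 5, did not overlap between the groups, against 12% of all genes tested.

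Hspa5 (probe at chr2:34631913-34631972, mm9) encodes BiP, the main chaperone of the ER lumen, which also holds the sensors inactive. Its levels in M0 post-sepsis cultures were 6.91, 7.63, 7.02 and 7.63, against 6.43, 6.69, 6.29 and 6.66 in M0 naive cultures. The lowest M0 post-sepsis array was above the highest M0 naive array, and the change was 0.78 ± 0.22 (SE, adjusted p = 0.0283 in limma). This call was lost in 6 of 16 alternatives, among them leaving out M0 post-sepsis replicate 2 (adjusted p = 0.0703) or replicate 4 (0.0760), or M0 naive replicate 1 (0.0591) or replicate 3 (0.0697), over a range of adjusted p from 0.00746 to 0.182.

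Hyou1 (chr9:44199354-44199413, mm9) encodes an Hsp70-related chaperone that exchanges the nucleotide of BiP. Its levels were -1.22, -1.18, -0.999 and -1.36 in M0 post-sepsis and -2.45, -2.76, -2.99 and -2.93 in M0 naive cultures. All 4 post-sepsis arrays were higher, by 1.59 ± 0.21 on the log2 scale, a 3.02-fold change (adjusted p = 1.1e-04 in limma). The Hyou1 probe was dim, with processed intensities from 109 to 185 in M0 post-sepsis and from 41.5 to 73.3 in M0 naive cultures. Sdf2l1 (chr16:17130426-17130485, mm9) encodes a partner of the BiP co-chaperones that keeps proteins soluble. It stood at 3.95, 4.56, 3.83 and 3.90 in M0 post-sepsis and at 3.38, 2.72, 1.96 and 2.43 in M0 naive cultures. The groups lay apart by 1.44 ± 0.26 (2.71-fold, adjusted p = 0.0016 in limma), with the M0 naive arrays spread wider than the post-sepsis ones.

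Creld2 (chr15:88656997-88657056, mm9) encodes a secreted and ER-resident protein with isomerase activity that is made in ER stress. Its levels were 4.58, 5.14, 4.54 and 5.13 in M0 post-sepsis and 3.94, 3.51, 3.25 and 3.59 in M0 naive cultures. Every post-sepsis array was higher, and the change was 1.27 ± 0.20 (2.42-fold, adjusted p = 5.2e-04 in limma). Herpud1 (chr8:96919117-96919176, mm9) encodes an ER membrane protein with a ubiquitin-like domain that organises the HRD1 degradation complex. It stood at 4.03, 4.59, 3.71 and 4.23 in M0 post-sepsis and at 2.99, 2.79, 2.37 and 2.97 in M0 naive cultures. The change was 1.36 ± 0.21, or 2.57-fold (adjusted p = 0.000315 in limma), again with no overlap.

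The other 5 genes did not pass the test in post-sepsis cultures. Pdia4, a disulfide isomerase, differed by 0.77 ± 0.35 (adjusted p = 0.232) and Xbp1, the transcription factor spliced by IRE1, by 0.32 ± 0.24 (0.574). Edem1 and Sel1l, which carry misfolded glycoproteins to the HRD1 ligase and stabilise that ligase, differed by -0.33 ± 0.33 (0.732) and 0.01 ± 0.34 (0.995). Dnajb9, a J-domain co-chaperone of BiP that represses IRE1, differed by -0.18 ± 0.25 (0.822).

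Post-sepsis cultures of slide 3 (replicates 2 and 4) were higher than those of slide 2 (replicates 1 and 3) in 8 of the 10 genes, among them Edem1 at 3.76 and 3.98 against 2.57 and 2.36. Sel1l stood at 1.51 and 1.86 on slide 3 and at 0.24 and 0.29 on slide 2. Pdia4 stood at 1.64 and 2.06 on slide 3 and at 0.46 and 0.21 on slide 2. Set against M0 naive arrays of the same slide, Pdia4 differed by 0.07 within slide 2 and by 1.50 within slide 3, and Sel1l by -0.71 and 0.78. Such differences rest on 2 against 2 arrays within slide 2 and on 2 against 1 within slide 3. Hspa5 was higher by 0.50 within slide 2 and by 1.20 within slide 3. The 4 other called genes were higher within both slides, by 1.85 and 1.18 for Hyou1, 1.20 and 1.42 for Herpud1, 1.70 and 0.85 for Sdf2l1, and 1.14 and 1.19 for Creld2. With the slide as a block 5 of the 10 genes rose, where 5.48% of all genes tested did. Of 10 macrophage markers 7 were lower in M0 post-sepsis cultures and 0 higher, with a median difference of -1.10. The macrophage list lay between 4.81 and 5.76 on M0 post-sepsis arrays and between 6.45 and 6.66 on M0 naive arrays. Of 7 neutrophil markers 5 were lower and 0 higher, with a median of -1.74 (list between -0.41 and 0.22 on M0 post-sepsis arrays and between 1.16 and 1.39 on M0 naive arrays). The part of these markers in the member changes was not tested.

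**Figure D3:**
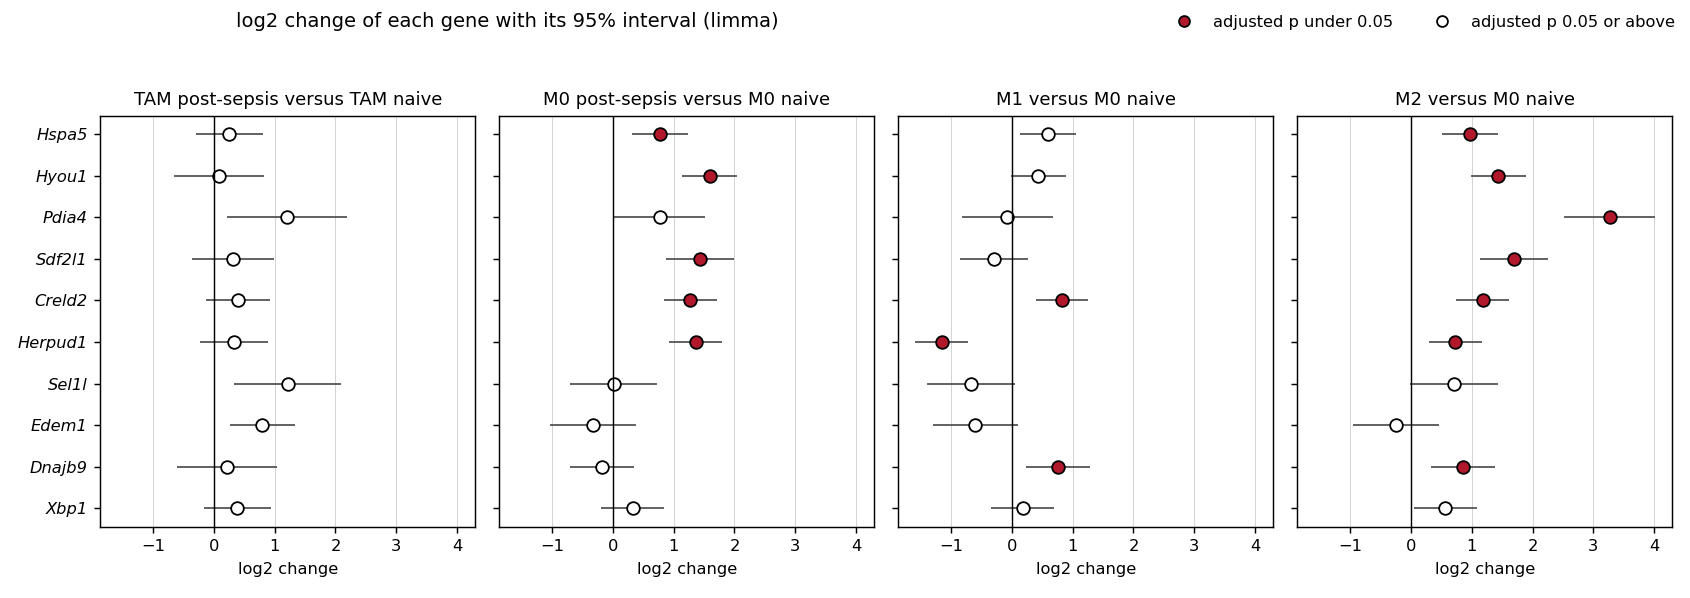
Log2 change of the 10 genes with its 95% interval in 4 comparisons, filled where the adjusted p was under 0.05. In M2 cultures 7 genes rose, in M0 post-sepsis cultures 5 rose, in M1 cultures 2 rose and 1 fell, and in TAM post-sepsis samples 0 passed.

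Macrophages given IL-10 (M2) had most of the chaperone genes above the level of M0 naive cultures. Of the 10 genes 7 rose and 0 fell, where 4.33% of 29688 genes rose and 6.85% fell. The 10 genes had a median change of 0.91, against -0.10 over all genes tested. The levels of 8 of the 10 genes did not overlap between the groups, against 20.9% of all genes tested. In the same comparison 5 of 7 neutrophil markers were lower and 0 higher (median -1.52, list between -0.34 and -0.03 on M2 arrays and between 1.16 and 1.39 on M0 naive arrays). Of 10 macrophage markers 4 were lower and 0 higher (median -0.35, list between 5.38 and 5.61 on M2 arrays and between 6.45 and 6.66 on M0 naive arrays). The part of these markers was not tested.

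Pdia4 (chr6:47746516-47746575, mm9) encodes ERp72, a disulfide isomerase bound to BiP, and had the largest change of the 10 genes. It stood at 3.86, 3.52, 3.39 and 3.60 in M2 cultures and at 0.35, 0.41, 0.12 and 0.40 in M0 naive cultures. All M2 arrays lay above every other array of the series, the next being TAM post-sepsis replicate 3 at 2.61. The change was 3.27 ± 0.35, or 9.64-fold (adjusted p = 1.2e-05 in limma). Within slides 1, 2 and 3 it was 3.15, 3.12 and 3.51. In that order the slides gave 2 against 1, 1 against 2 and 1 against 1 arrays of M2 and M0 naive.

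Sdf2l1 stood at 4.54, 4.31, 4.31 and 4.08 in M2 cultures and was 3.23-fold higher than in M0 naive cultures, by 1.69 ± 0.26 on the log2 scale (adjusted p = 4.3e-04). Hyou1 stood at -1.92, -1.17, -1.32 and -0.99 and was higher by 1.43 ± 0.21, or 2.70-fold (adjusted p = 2.7e-04). Its M2 replicate on slide 3 was the lowest, and the change was 1.68 and 1.64 within slides 1 and 2 but 0.53 within slide 3. Creld2 had levels of 4.87, 4.59, 4.68 and 4.87 in M2 cultures and rose by 1.18 ± 0.20 (2.26-fold, adjusted p = 0.00107). Hspa5 had levels of 7.61, 7.12, 7.53 and 7.67 and rose by 0.97 ± 0.22 (1.95-fold, adjusted p = 0.00764). Neither these 4 genes nor Pdia4 overlapped the M0 naive levels given above, and these 5 calls held in 16 of 16 alternatives.

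Dnajb9 and Herpud1 rose by less and less firmly. Dnajb9 (chr12:45307313-45307372, mm9) stood at 2.56, 2.21, 2.76 and 2.56 in M2 cultures and at 1.88, 1.65, 1.30 and 1.84 in M0 naive cultures, a change of 0.85 ± 0.25 (1.81-fold, adjusted p = 0.0359). Its other, dimmer probe (chr12:45308272-45308331) moved the same way, by 1.64. Herpud1 stood at 3.58, 3.55, 3.37 and 3.52 in M2 cultures and was higher by 0.73 ± 0.20 (1.66-fold, adjusted p = 0.0312). Each of these calls held in 9 of 16 alternatives. Both were lost with no filter on dim probes (adjusted p = 0.0724 and 0.0708). That of Dnajb9 was also lost without M2 replicate 1, 3 or 4 or M0 naive replicate 2, 3 or 4 (adjusted p up to 0.110 over all alternatives, the lowest being 0.00102), and that of Herpud1 without any 1 M2 replicate or without M0 naive replicate 2 or 3 (0.00102 to 0.0736).

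Xbp1, Sel1l and Edem1 did not pass in M2 cultures. Xbp1 (chr11:5425816-5425875, mm9) had levels of 6.03, 5.89, 5.92 and 6.20 in M2 and 5.69, 5.35, 5.11 and 5.64 in M0 naive cultures. The groups did not overlap, but the difference of 0.56 ± 0.24 gave an adjusted p of 0.172. Its 1 probe does not tell the spliced from the unspliced transcript. Sel1l (chr12:93044963-93045022, mm9) differed by 0.71 ± 0.34 (adjusted p = 0.226) and Edem1 (chr6:108808920-108808979, mm9) by -0.24 ± 0.33 (0.730).

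Macrophages given interferon-gamma and lipopolysaccharide (M1) had 2 of the 10 genes higher and 1 lower than M0 naive cultures. Over 29501 genes, 12.5% rose and 14.4% fell. The median change of the 10 genes was 0.05, against -0.12 over all genes tested. Levels of 5 of the 10 genes did not overlap between the groups, against 33% of all genes tested. Of 7 neutrophil markers 6 were lower and 1 higher (median -1.92, list between -1.35 and -0.92 on M1 arrays and between 1.16 and 1.39 on M0 naive arrays). Of 10 macrophage markers 5 were lower and 1 higher (median -0.63, list between 6.00 and 6.17 on M1 arrays and between 6.45 and 6.66 on M0 naive arrays). The part of these markers was not tested.

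Herpud1 fell to 1.85, 1.52, 1.48 and 1.63 in M1 cultures, against 2.99, 2.79, 2.37 and 2.97 in M0 naive cultures. These were the lowest Herpud1 levels of the 23 arrays, and the change was -1.15 ± 0.20 (adjusted p = 3.8e-04 in limma), or 2.23-fold lower. Creld2 rose to 4.35, 4.23, 4.36 and 4.66 in M1 cultures, a change of 0.83 ± 0.20 (adjusted p = 0.00539). Dnajb9 stood at 2.59, 2.54, 2.13 and 2.45 and was higher by 0.76 ± 0.25 (adjusted p = 0.0317). Its second probe differed by 2.02 in the same direction. With the slide as a block the Dnajb9 change was 0.69 (adjusted p = 0.0540), and the call was also lost without M1 replicate 1, 2 or 4 or M0 naive replicate 2 or 3, over a range of adjusted p from 1.1e-04 to 0.0907.

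Hspa5 levels in M1 cultures, 7.22, 7.00, 6.85 and 7.38, lay above those of M0 naive cultures on every array, but the difference of 0.60 ± 0.22 just missed the threshold (adjusted p = 0.0532). It passed in 6 of 16 alternatives, under both other scalings among them (adjusted p from 3.5e-04 to 0.156). Sel1l differed by -0.67 ± 0.34 (0.188), Edem1 by -0.60 ± 0.33 (0.236) and Hyou1 by 0.43 ± 0.21 (0.168). Sdf2l1 differed by -0.29 ± 0.26 (0.526), Xbp1 by 0.18 ± 0.24 (0.689) and Pdia4 by -0.08 ± 0.35 (0.911).

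Set directly against each other, M1 cultures were lower than M2 cultures in 5 genes and higher in 0. Over 28685 genes, 15.4% were higher and 14.6% lower. The median difference over the 10 genes was -0.69, against 0.00 over all genes tested, and 6 of the 10 did not overlap (38.1% of all genes tested). Pdia4 stood at -0.29, -0.01, 0.67 and 0.61 in M1 cultures and, as given above, between 3.39 and 3.86 in M2 cultures, a difference of -3.35 ± 0.35 (adjusted p = 2.1e-06), or 10.2-fold lower. Sdf2l1 at 2.48, 2.08, 2.43 and 2.32 in M1 cultures was lower by 1.98 on the log2 scale (-1.98 ± 0.26, adjusted p = 2.2e-05). Herpud1 differed by -1.88 ± 0.20 (adjusted p = 2.7e-06), Sel1l by -1.38 ± 0.34 (0.00507) and Hyou1 by -0.999 ± 0.21 (0.00163). Those 5 calls held in 16 of 16 alternatives. Hspa5 (-0.37 ± 0.21, adjusted p = 0.232), Creld2 (-0.35 ± 0.20, 0.231), Xbp1 (-0.39 ± 0.24, 0.275), Edem1 (-0.36 ± 0.33, 0.483) and Dnajb9 (-0.10 ± 0.25, 0.824) did not pass.

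In samples labelled as tumour-associated macrophages of post-sepsis mice, 0 of the 10 genes passed against TAM naive samples. Of all 28942 genes 0 passed (0% in either direction), with 11218 at an unadjusted p under 0.05 and a smallest adjusted p of 0.111 in limma. Of the 10 genes 3 had an unadjusted p under 0.05. All 10 had a higher mean in TAM post-sepsis samples, with a median difference of 0.36, against 0.01 over all genes tested. The sign of Hyou1 turned under the normexp background correction, where its difference was -0.004. Leaving out TAM post-sepsis replicate 2 gave 3 of the 10 genes and 9933 of all genes.

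The largest TAM differences were in 2 ERAD genes and the isomerase. Sel1l stood at 0.27, -0.57, 0.62 and 0.48 in TAM post-sepsis samples and at -1.40, -1.28 and -0.37 in TAM naive samples, a difference of 1.22 ± 0.38 (adjusted p = 0.111). The highest naive sample lay above the lowest post-sepsis one. Pdia4 stood at 2.06, 0.96, 2.61 and 2.08 in TAM post-sepsis samples and at 0.58, 0.32 and 1.28 in TAM naive samples, a difference of 1.20 ± 0.42 (adjusted p = 0.111), and the groups overlapped through replicate 2 of the post-sepsis group. Edem1 stood at 2.36, 2.08, 2.65 and 2.16 in TAM post-sepsis samples and at 1.34, 1.44 and 1.75 in TAM naive samples. It was the 1 gene of the 10 with no overlap, against 24% of all genes tested, and differed by 0.80 ± 0.23 (adjusted p = 0.111).

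With the slide as a block these 3 genes passed in limma, Sel1l by 1.21 ± 0.23 (adjusted p = 0.0130), Edem1 by 0.82 ± 0.18 (0.0186) and Pdia4 by 1.21 ± 0.29 (0.0208). In the same fit 35.4% of all genes passed, 9.87% higher and 25.5% lower. Over all 16 alternatives the adjusted p of Sel1l ran from 0.00102 to 0.335, that of Edem1 from 0.0186 to 0.335 and that of Pdia4 from 7.5e-04 to 0.335. Within slides 1, 2 and 3 the Sel1l difference was 1.65, 1.00 and 0.83, that of Edem1 0.82, 0.90 and 0.73, and that of Pdia4 1.75, 1.33 and 0.38. Slide 1 gave 2 post-sepsis arrays and 1 naive array, and slides 2 and 3 gave 1 of each. Dnajb9 (-0.67, 0.65 and 0.94) and Hyou1 (0.45, -0.89 and 0.48) did not keep 1 direction across the slides. Lists of B cell, T and NK cell, neutrophil and plasma cell markers had median differences of -2.35, -2.13, -2.14 and -1.39 between the same samples. The B cell list lay between -3.50 and -1.002 in TAM post-sepsis and between -0.40 and 1.68 in TAM naive samples, and the T and NK cell list between -2.98 and -1.05 in TAM post-sepsis and between -0.48 and 0.57 in TAM naive samples. The macrophage list had a median difference of 0.25. Once slide was added as a block, 6 of 6 B cell genes and 7 of 8 T and NK cell genes were lower. So were 4 of 6 neutrophil genes and 3 of 10 macrophage genes, with 0 higher in either list. Of 6 plasma cell genes 5 were lower and 1, Sdc1, was higher (1.02, adjusted p = 0.0120 in limma). Their part in these values was not tested.

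The remaining 7 genes differed by less between the TAM groups. The differences ran from 0.08 ± 0.32 for Hyou1 (adjusted p = 0.851) to 0.40 ± 0.23 for Creld2 (0.208). Hspa5 stood at 7.21, 7.10, 7.48 and 6.96 in TAM post-sepsis samples and at 6.59, 7.20 and 7.01 in TAM naive samples. Xbp1 stood at 5.08, 4.96, 5.42 and 4.96 in TAM post-sepsis and at 4.37, 4.96 and 4.82 in TAM naive samples. In both genes the lowest naive value was replicate 1, and the rest overlapped. Herpud1 (0.33 ± 0.24, adjusted p = 0.318), Sdf2l1 (0.32 ± 0.29, 0.416), Dnajb9 (0.21 ± 0.35, 0.653), Hspa5 (0.25 ± 0.24, 0.425) and Xbp1 (0.39 ± 0.24, 0.237) did not pass.

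The difference between the post-sepsis effect in TAM and that in M0 cultures was tested as an interaction. Of the 10 genes 0 were higher and 1 lower, where 3.46% of 31732 genes were higher and 1.99% lower. The gene was Hyou1, whose effect was lower in TAM by 1.51 on the log2 scale (-1.51 ± 0.36, adjusted p = 0.0180 in limma). It stood at -0.23, -0.73, -1.25 and -0.94 in TAM post-sepsis and at -1.21, -1.04 and -0.36 in TAM naive samples, which overlapped, while its M0 groups did not. The call held in 22 of 24 alternatives and was lost with TAM naive replicate 2 kept (adjusted p = 0.318, the highest over all alternatives) and in a fit of these 4 groups alone (0.0740). The lowest adjusted p was 0.00910. Herpud1 (-1.03 ± 0.30, adjusted p = 0.0506), Creld2 (-0.87 ± 0.29, 0.0800) and Sdf2l1 (-1.12 ± 0.39, 0.0906) were also lower but did not pass. Edem1 (1.13 ± 0.44, 0.122) and Sel1l (1.21 ± 0.52, 0.148) had the opposite sign. The median over all genes was -0.25 for this contrast, and -0.04 and -0.38 under the 2 other scalings, so that these values are relative to that shift.

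TAM naive samples differed from M0 naive cultures in both directions. Against M0 naive cultures, TAM naive samples had 3 of the 10 genes higher (14.5% of 30579 genes) and 3 lower (20.8%). Hyou1 (1.91 ± 0.26, adjusted p = 4.8e-06), Herpud1 (1.75 ± 0.22, 1.7e-06) and Creld2 (1.18 ± 0.21, 1.3e-04) were higher. Sel1l (-1.98 ± 0.38, 2.6e-04), Edem1 (-1.98 ± 0.32, 4.4e-05) and Xbp1 (-0.73 ± 0.25, 0.0275) were lower. The Xbp1 call was lost without TAM naive replicate 1 (adjusted p = 0.158, the highest over 16 alternatives, the lowest being 0.0129), without M0 naive replicate 1 or 4, and under quantile normalization. With TAM naive replicate 2 kept, the calls of Herpud1 (0.75, adjusted p = 0.299) and Creld2 (0.63, 0.186) were lost, the highest adjusted p over their 16 alternatives. Of the 10 genes 6 did not overlap (39.2% of all genes tested), and the median was 0.18, against -0.02 over all genes. Dnajb9 (-0.04 ± 0.30, 0.925) was higher by 1.62 on its second probe.

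Between the post-sepsis groups, TAM samples had 1 of the 10 genes higher than M0 cultures (16.4% of 29868 genes) and 3 lower (27%). Herpud1 was higher by 0.71 ± 0.21 (adjusted p = 0.00845), standing at 4.78, 5.06, 4.99 and 4.59 in TAM post-sepsis samples, just above M0 post-sepsis replicate 2 at 4.59. Sdf2l1, at 3.36, 2.88, 2.64 and 2.43 in TAM post-sepsis samples, was lower on every array (-1.23 ± 0.27, adjusted p = 8.7e-04). Edem1 (-0.86 ± 0.30, 0.0265) and Xbp1 (-0.66 ± 0.23, 0.0259) were lower with overlap. Their calls were lost in 6 and 8 of 17 alternatives, among them leaving out TAM post-sepsis replicate 2 or 4 or M0 post-sepsis replicate 2 or 4, with adjusted p up to 0.150 and 0.167. With TAM naive replicate 2 kept, which enters only through the shared estimate of spread, the Herpud1 (adjusted p = 0.380) and Sdf2l1 (0.133) calls were lost as well, and in a fit of these 2 groups alone that of Herpud1 (0.0851). Over 17 alternatives the lowest adjusted p was 8.2e-05 for Herpud1 and 9.6e-05 for Sdf2l1. Of the 10 genes 2 did not overlap (29.6% of all genes tested). The median over all genes was -0.34, and -0.18 under quantile normalization.

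Ordered by mean level over the 6 groups, the genes fell into different patterns. Hspa5, Dnajb9 (on its brighter probe) and Xbp1 had no break: every group overlapped the next in order, from M2 at 7.48 ± 0.25 to M0 naive at 6.52 ± 0.19 for Hspa5 (SD, n = 4 each). On the dimmer Dnajb9 probe there was a break. M0 post-sepsis (highest -2.47) and M0 naive (highest -2.93) lay below every other group, the nearest being TAM naive (lowest -1.96). Herpud1 had the clearest steps, with TAM post-sepsis (4.86 ± 0.21), TAM naive (4.53 ± 0.35, n = 3) and M0 post-sepsis (4.14 ± 0.37) overlapping in turn, and then M2 (3.50 ± 0.10), M0 naive (2.78 ± 0.29) and M1 (1.62 ± 0.17) each apart from its neighbours. Pdia4 was set apart in M2 (3.59 ± 0.20), followed by TAM post-sepsis (1.93 ± 0.70), and the other groups overlapped in turn. Sdf2l1 was high in M2 (4.31 ± 0.19) and M0 post-sepsis (4.06 ± 0.33), which did not overlap the other 4 groups. Creld2 was lowest in M0 naive (3.57 ± 0.29), apart from M1 (4.40 ± 0.18). Edem1 was lowest in TAM naive (1.51 ± 0.21) and highest in M0 naive (3.49 ± 0.24), whereas M0 naive (-2.79 ± 0.24) was the lowest group for Hyou1.

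Over the 23 arrays the 10 genes did not all move together. These correlations are descriptions over arrays that share groups and slides, and carry no p. Pdia4 and Hspa5 had r = 0.79 with the mean of the other 9 genes, and Sdf2l1 had 0.78. Herpud1 and Edem1 had 0.26 and 0.23. The highest pair was Edem1 with Sel1l (0.89), followed by Xbp1 with Sel1l (0.85) and Creld2 with Hyou1 (0.83). The lowest was Hyou1 with Edem1 (-0.56). On the 16 culture arrays alone, Sdf2l1 had 0.86, Xbp1 0.82 and Pdia4 0.81, and Dnajb9 was the least like the rest at 0.28. Outside the 10 genes and the pathway lists, the protein-coding gene most like their mean was Rpn2, over 23 arrays (r = 0.957) and over the 16 culture arrays (0.982). The median over 35464 genes, with non-coding genes and unnamed probes among them, was -0.116 and -0.119. Only protein-coding genes were ranked. Over 23 arrays it was followed by Ddost (0.950), Cltb (0.931), Pi4ka (0.921) and Mrps36 (0.921), and over the culture arrays by Mpp6 (0.980), Wdr46 (0.977), Rps6ka3 (0.972) and Ttc27 (0.970).

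Other genes of the response were read from 5 lists: 7 sensors and signal transducers, 9 genes of the ATF4 and CHOP branch, 19 chaperones and folding enzymes, 14 ERAD genes and 12 genes of translocation into the ER and signal peptide removal. In M2 cultures the chaperones rose most widely against M0 naive cultures, with 11 of 19 higher and 0 lower and a median of 1.09, against -0.10 over all genes tested. Pdia3, a disulfide isomerase of glycoproteins, was higher by 1.69 ± 0.27 (adjusted p = 5.5e-04), P4hb, the main disulfide isomerase, by 1.37 ± 0.25 (0.0019), and Hsp90b1, the ER form of HSP90, by 1.09 ± 0.22 (0.0042). Fkbp11, a prolyl isomerase, was well above background on 4 of 4 M2 arrays and on 0 of 4 M0 naive arrays, and was at least 3.14-fold higher (adjusted p = 5.5e-04). Such a bound sets the mean of the brighter group against the lowest signal well above background on each dim array, or the gene's own signal where that is higher. Translocation genes rose in 4 of 12 (Spcs2 by 0.83 ± 0.19, adjusted p = 0.0094) and ERAD genes in 1 of 14, Edem2 (1.53 ± 0.24, 3.9e-04). Over all genes tested 4.33% rose and 6.85% fell, so that the ERAD count was near the share of all genes. Of the plasma cell markers, 2 of 4 tested were higher in M2 cultures, Irf4 by 4.25 and Sdc1 by 2.65. The other 2 tested were Mzb1, at -4.56 ± 0.38 in M2 and -3.41 ± 0.41 in M0 naive cultures (SD, n = 4 each), and Prdm1, at 1.74 ± 0.37 in M2 and 1.75 ± 0.31 in M0 naive cultures. Jchain, Tnfrsf17 and Pou2af1 were too dim to be tested. In M1 against M0 naive cultures 1 of 4 tested was higher, Sdc1 by 6.56, and 2 were lower, Irf4 (-1.08) and Prdm1 (-0.67). Sdc1 was thus not particular to M2 cultures, and was higher in M1 than in M2 cultures by 3.91. The plasma cell list lay between -2.60 and -2.19 on M2 arrays and between -3.36 and -2.52 on M0 naive arrays. Its part in these values was not tested.

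**Figure D4:**
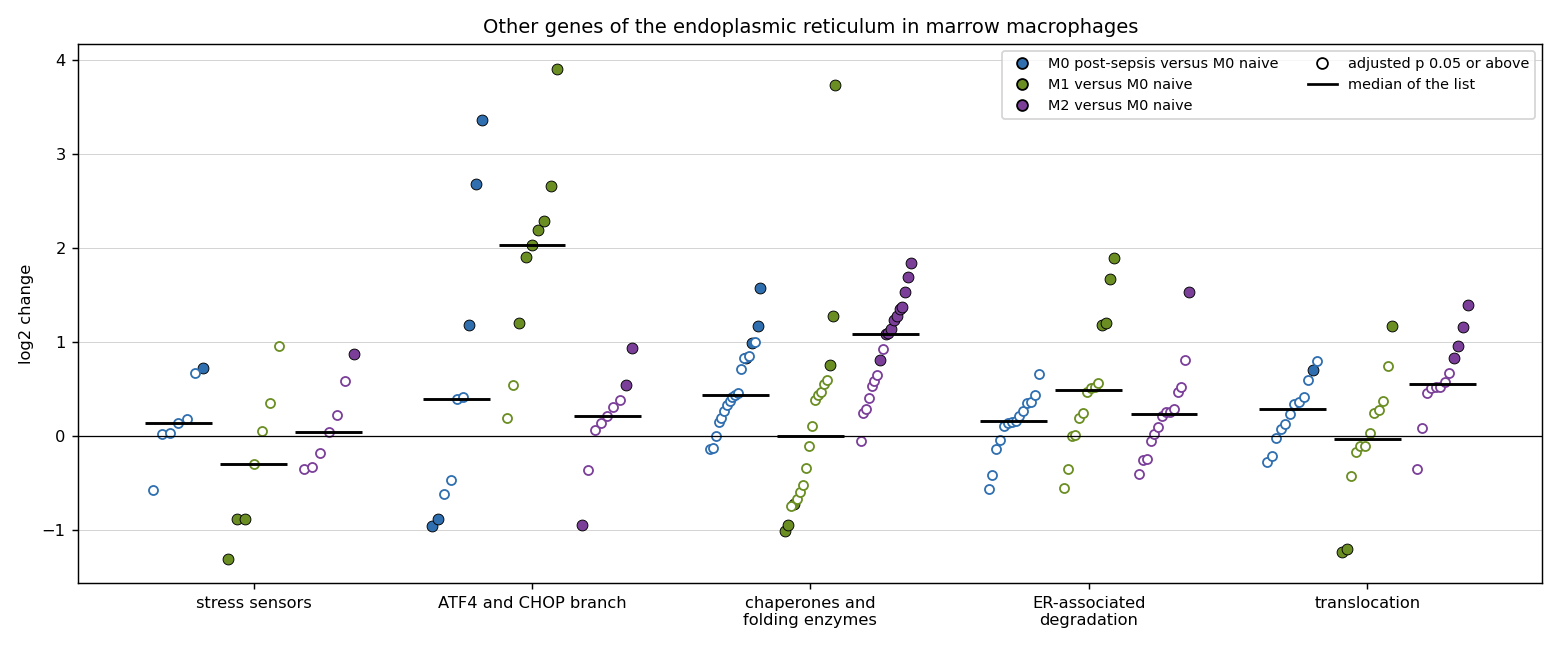
Log2 change of each gene of the 5 lists in M0 post-sepsis, M1 and M2 cultures, each against M0 naive cultures, with the line at the list's median and filled points where the adjusted p was under 0.05. Chaperones lie highest in M2 (median 1.09) and ATF4 and CHOP branch genes highest in M1 (median 2.04).

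In M1 cultures the ATF4 and CHOP branch rose instead, with 7 of 9 genes higher and 0 lower, the same counts under both other scalings, and a median of 2.04, against -0.12 over all genes tested. Trib3, a pseudokinase induced by CHOP, was higher by 3.91 ± 0.25 (adjusted p = 6.8e-09). Ppp1r15a, which restores translation by dephosphorylating eIF2alpha, was higher by 2.29 ± 0.19 (2.0e-07). Ddit3, which encodes CHOP, was higher by 2.04 ± 0.26 (1.3e-05). The chaperone list had 3 of 18 tested genes higher and 3 lower, with a median of 0.00, a share near the 12.5% higher and 14.4% lower over all genes tested. Of those that passed, Ero1a, the oxidase that recharges disulfide isomerases, was higher by 3.74 ± 0.42, and the lectin chaperone Canx was lower (-1.01 ± 0.23, adjusted p = 0.0026). P4hb, named above for M2 cultures, was higher in M1 cultures as well, by 1.28 ± 0.25 (adjusted p = 0.00103 in limma). ERAD genes rose in 4 of 14, among them Edem2 (1.90 ± 0.24), Ufd1 (1.67 ± 0.21) and Derl2 (1.20 ± 0.19). Of the 7 sensors and transducers 3 fell, namely Atf6 (-1.31 ± 0.33, adjusted p = 0.0069), Mbtps1, the protease that cleaves ATF6 (-0.89 ± 0.22, 0.0055), and Eif2ak3, which encodes PERK (-0.89 ± 0.21, 0.0043). Directly against M2 cultures, M1 cultures were higher in 6 of 9 ATF4 and CHOP genes (median 1.88) and lower in 11 of 19 chaperones (median -1.20), with 1 chaperone, Ero1a, higher by 2.20. Over all genes tested 15.4% were higher and 14.6% lower. P4hb did not pass between M1 and M2 cultures (-0.09 ± 0.25, adjusted p = 0.832 in limma).

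In M0 post-sepsis cultures the ATF4 and CHOP branch was split against M0 naive cultures, with 3 of 9 genes higher and 2 lower and a median of 0.39, against 0.04 over all genes tested. Of all genes tested 5.41% rose and 5.33% fell. Chac1, which degrades glutathione, stood at 2.29 ± 0.40 in M0 post-sepsis and -1.07 ± 0.56 in M0 naive cultures (SD, n = 4 each) and was higher by 3.37 ± 0.26 (adjusted p = 6.1e-07 in limma). Trib3 (2.69 ± 0.25, 3.4e-06) and Atf4 (1.18 ± 0.20, 7.8e-04) were higher as well, whereas Ddit3 (-0.95 ± 0.26, 0.023) and Atf3 (-0.88 ± 0.27, 0.045) were lower. Chaperones rose in 4 of 19, among them Pdia6 (1.17 ± 0.23, 0.0029), Manf (0.99 ± 0.25, 0.015) and Fkbp11, which was at least 2.60-fold higher (0.002). ERAD genes passed in 0 of 14 in limma, and 1 of the 14 had an unadjusted p under 0.05.

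In TAM post-sepsis against TAM naive samples 0 of the 60 tested genes of the 5 lists passed in limma, with 20 at an unadjusted p under 0.05 and list medians between 0.41 and 0.54. With the slide as a block 6 of 19 chaperones rose, among them Fkbp2 (1.07, adjusted p = 0.0120) and Txndc5 (1.56, 0.0159), and 3 of 9 ATF4 and CHOP genes, Ddit3 by 1.13, Chac1 by 1.19 and Atf3 by 0.86. In that fit ERAD genes had 3 of 14 higher and 1, Derl3, lower (-1.41), and of all genes tested 9.87% were higher and 25.5% lower. In the interaction 4 of the 60 tested genes of the lists passed, where 3.46% of all genes were higher and 1.99% lower, and the 4 were of the ATF4 and CHOP branch. With the slide as a block the ERAD gene Derl3 passed too (-2.09, adjusted p = 0.0493). The post-sepsis effect was lower in TAM than in M0 cultures for Chac1 (-2.27 ± 0.42, adjusted p = 0.0034) and Trib3 (-2.14 ± 0.38, 0.0024), and higher for Ddit3 (2.04 ± 0.42, 0.0074) and Atf3 (1.73 ± 0.42, 0.021). TAM naive samples themselves were higher than M0 naive cultures in 6 of 9 genes of this branch and lower in 3, with Chac1 higher by 3.94 and Trib3 by 2.93, Atf3 lower (-2.03) and Ddit3 lower (-1.21). In the same comparison ERAD genes fell in 6 of 14 and rose in 0, with a median of -0.44, against 20.8% lower and 14.5% higher and a median of -0.02 over all genes tested.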

How the data were processed

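Each scanner file held the spots of 1 array. Per the file headers, the deposited processed intensity was background-subtracted and detrended within the array by Agilent Feature Extraction, with mm9 probe positions. Its version was 12.5 in the submitters' processing notes, and the grid placement field of a file header gave 10.7.3.1. No scaling between arrays is recorded there. A deposited value table of log2 values was not used here, because its columns had been found to follow the scanner files of other samples; the scaling of its log2 values is not given in the sources used here. From the intensities, log2 values were computed and the 75th percentile of each array was set to 0. Control and 82 non-uniform spots were left out, spots of 1 probe were averaged, and the brightest probe stood for a gene. Genes were tested where a compared group had 3 or more arrays well above background. Fits used limma 3.58.1 in R 4.3.3 (lmFit and eBayes): TAM groups on their own 7 arrays, cultures on the 16 culture arrays, and TAM against M0 and the interaction on all 23. Probes were named by RefSeq accession (27650), symbol (3406) or synonym (321), through a table for GRCm38.p6 used for names. Array number limits the precision. The named genes were the 10 genes in every comparison, up to 3 genes per list and comparison with the smallest adjusted p, and the 5 protein-coding genes most like the members' mean on each set of arrays. Other list genes were chosen after their values were seen. The members and lists were chosen with earlier results of these data known. The fits were tested on simulated data. Alternatives were quantile normalization, normexp on mean and background signals (offset 50), other filters, the mean over probes, the slide as a block, the replicate block, other samples in the fit, the excluded TAM naive array kept, and each replicate left out.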

Additional observations from a re-analysis of the deposited data

Results flagged for a closer look

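Sdf2l1 in M0 post-sepsis replicate 2 stood apart from the other arrays of its group, at 4.56, against 3.83 to 3.95 on the other 3. The gap was 0.833 of the group's range, just above Dixon's critical value of 0.829 for 4 samples. It was 1 of 50 gene and group pairs tested in this way, of which chance flags about 1 in 20. Sdf2l1 was called higher in M0 post-sepsis than in M0 naive cultures in 16 of 16 alternatives, the one without that replicate among them, with changes from 1.22 to 1.69.

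The post-sepsis effect on Hyou1 differed between TAM and M0 cultures in the test of the difference itself (-1.51, adjusted p = 0.0180 in limma, TAM effect minus M0 effect). The effect was 0.08 in TAM and 1.59 in M0 cultures.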

How the results depend on the processing

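Of the member changes recomputed under an alternative, 1244 kept their direction and their side of the threshold, 53 lost the call, 39 gained it and 34 turned sign. In TAM post-sepsis against TAM naive samples, where 0 members and 0 genes passed, the slide block gave 3 members and 10246 genes, the replicate block 2 and 10309, all 23 arrays in the fit 1 and 3768, and leaving out single replicates 0 to 3 members and 0 to 9933 genes. Whether the replicate numbers pair the samples was not settled. No comparison had every same-numbered pair correlated above 0.1, which cannot exclude a pairing by design. In M1 against M0 naive cultures these correlations ran from 0.08 to 0.70, and 3 of 4 replicates matched best with their own number. The other comparisons had 0 or 1 such match. The replicate block is given for that reason only here. In M0 post-sepsis against M0 naive cultures a fit of only those 8 arrays called 1439 genes, against 3182. In M1 against M0 naive cultures 5 members passed under quantile normalization and 6 with other samples in the fit, against 3. In TAM post-sepsis against M0 post-sepsis samples 0 members and 7066 genes passed with TAM naive replicate 2 kept, and 1 and 7357 with other samples in the fit, against 4 and 12962. Single replicates left out gave 2 to 5 members. For the interaction, 4 members and 3078 genes passed under quantile normalization, 2 members under the stricter filter or with the mean over probes, 0 and 713 with TAM naive replicate 2 kept, and 0 and 426 in a fit of 4 groups, against 1 and 1731. Single replicates left out gave 1 to 3 members and 827 to 5563 genes. Quantile normalization also raised counts in the lists against M0 naive cultures: in M2 translocation genes 8 higher and 1 lower (4 and 0 in the report) and ERAD genes 4 higher (1), in M1 chaperones 6 higher and 5 lower (3 and 3) and ERAD genes 7 higher (4), in M0 post-sepsis chaperones 7 higher (4), and in TAM naive chaperones 7 higher (3). The cause of these moves was not tested, beyond the number of arrays in each fit.

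Small changes that did not pass turned sign. In TAM post-sepsis against TAM naive samples Hyou1 was -0.0038 under normexp and ran from -0.10 to 0.34 with single replicates left out, and Dnajb9 ran from -0.12 to 0.51. In M0 post-sepsis against M0 naive cultures Sel1l was -0.046 under quantile normalization, -0.035 under normexp and -0.064 with the slide block, and ran from -0.29 to 0.25 with single replicates left out. Dnajb9 was 0.0083 over both probes and ran from -0.35 to 0.017. Pdia4 in M1 against M0 naive cultures ran from -0.22 to 0.10. Dnajb9 in M1 against M2 cultures was 0.14 over both probes and ran from -0.20 to 0.0036. In TAM naive against M0 naive samples Dnajb9 was 0.21 under quantile normalization and 0.79 over both probes, and ran from -0.34 to 0.29. Sdf2l1 was 0.23 under quantile normalization and ran from -0.33 to 0.14, and Pdia4 was -0.40 with TAM naive replicate 2 kept. Hspa5 in TAM post-sepsis against M0 post-sepsis samples ran from -0.24 to 2.6e-04. Xbp1 in the interaction was -0.17 under quantile normalization and ran from -0.16 to 0.22.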
